A study of Rattus norvegicus with 12 samples.

Results

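Integrins, laminins and syndecans are the genes of cell attachment to the extracellular matrix, and they were followed here in the striatum of rats with a lesion of the dopamine neurons. The members were all genes on the array whose name in the scanner files begins as an integrin alpha or beta subunit (Itga, Itgb), a laminin chain (Lama, Lamb or Lamc and a digit) or a syndecan (Sdc and a digit). The rule gave 39 of the 35608 genes on the array, carried by 60 probes. It uses names only, so 4 of the 39 genes are no adhesion receptors or ligands: Itgb1bp1, Itgb1bp2 and Itgb3bp are named for proteins that bind a beta subunit, and Itgb4bp is the older name of Eif6, a ribosome assembly factor. Of the 39 genes, 27 passed the filter on dim probes, which asked for a signal well above background on at least 5 of the 12 arrays, and the remaining 12 are taken up further on.

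RNA of the dorsal striatum was hybridised to 1 single-colour Agilent array per rat, in 4 groups of 3 male rats. All rats received 9 µg of the toxin 6-OHDA in the left substantia nigra, so every group carries the lesion and no group is intact. The 6-OHDA group had the lesion alone. In the HFS group an electrode was placed in the subthalamic nucleus on the lesioned side and high frequency stimulation was given for 5 days (130 Hz, 80 µs pulses, 60 µA). The DOPA group was given L-DOPA, the precursor of dopamine, at 25 mg/kg with 12.5 mg/kg of benserazide for 19 days. In the DOPA/HFS group the stimulation was added over the last 5 days of the same L-DOPA treatment. The labels and methods used here give neither strain nor age. Only rats with a deep lesion and a well-placed electrode entered the study, and the 6-OHDA and DOPA rats are not described as carrying an electrode, so implantation and stimulation cannot be told apart.

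Integrins are receptors made of 1 alpha and 1 beta subunit that span the cell membrane and tie the matrix outside to the cytoskeleton inside. Laminins are trimers of an alpha, a beta and a gamma chain and form, with collagen IV and nidogen, the basement membrane that surrounds the blood vessels of the brain. Syndecans are membrane proteins with heparan sulphate chains that bind matrix proteins and growth factors and act beside the integrins. In the striatum these genes are shared among vessels, glia and neurons, and in a tissue punch fewer cells of a type and less RNA per cell cannot be told apart.

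Values below are log2 signals after quantile normalization between the arrays, and differences between groups are log2 fold changes from a limma fit of all 12 arrays. To be called, a gene needed a fold over 1.2 or under 0.8 and a p under 0.1 after Benjamini-Hochberg adjustment over all 20399 genes tested. Levels of different genes are not set against each other, since each comes from its own probe.

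The 12 arrays differed in ways that touch several members. Spots well above background made up 53.8% to 58.9% of each array in 6-OHDA and 50.5% to 58% in DOPA. In HFS they made up 60.3% to 63.2% and in DOPA/HFS 60% to 62.8%. Every array of a stimulated rat thus had a higher share than any other array. On DOPA/HFS replicate 3 the scanner software marked 4175 spots as outliers, against 2 to 25 on each other array, and the values of Itga1, Itgad and Sdc3 are missing there. DOPA/HFS replicate 1 stood apart in 2 neuropeptide genes that were high on the other arrays of rats given L-DOPA: Pdyn, the prodynorphin gene, had a log2 signal of 14.68 on it, against 15.87 and 15.81 on the other two DOPA/HFS arrays, 15.98 to 16.21 in DOPA and 14.53 to 14.83 in 6-OHDA. For Trh, which encodes thyrotropin-releasing hormone, the DOPA/HFS values were 7.82, 10.50 and 11.03, against 8.00 to 8.07 in 6-OHDA. The differences of Sdc1, Itga7 and Itgb6 that use this array are also given without it, a choice made after its values were seen. In HFS, markers of the choroid plexus, the secretory tissue of the brain ventricles, were high. The mean log2 signal of its 8 measured markers of 15 listed was 11.01, 8.09 and 10.58 in HFS, against 5.89 to 6.47 in 6-OHDA, 5.72 to 9.29 in DOPA and 5.67 to 7.08 in DOPA/HFS, and the defining marker Ttr was higher in HFS by 8.27 ± 2.51 (SE, n = 3). All 10 markers of striatal projection neurons were measured, with a mean log2 signal of 13.97 to 14.43 over the arrays. No other brain region was on the arrays, so this does not test the striatal label. For microglia the 9 markers gave 11.19 to 11.47, and for endothelium 11 of 12 markers gave 7.33 to 8.45.

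No member was called in any of the 8 comparisons made. The limma test called 1 of all genes in DOPA, 0.0049% of those tested, and 0% in HFS and with both treatments. It did not call Trh in DOPA (2.67, adjusted p = 0.967) or Ttr in HFS (8.27, adjusted p = 0.998) either. A gene that was not called is therefore not shown to be unchanged. At an unadjusted p under 0.05, 4 of the 27 tested members differed from 6-OHDA in DOPA (14.8%), where 2.58% of all genes did. That count was 2 with 75th percentile scaling and 2 with outlier spots kept, and it ran from 0, without DOPA replicate 2, to 5 when 1 array at a time was left out. It was 1 without DOPA replicate 1 or without 6-OHDA replicate 3, and 2 without 6-OHDA replicate 1. Among the 4 are Sdc1, Itga7 and Itgb6, which the study had picked from these same arrays. The share of 14.8% is therefore not independent evidence. For HFS the count was 0 of 27 (2.34% of all genes) and at most 1 under any alternative, and for DOPA/HFS also 0 of 27 (2.75% of all genes) and at most 2. After adjustment over all genes the lowest p of a member was 1 in DOPA, 0.998 in HFS and 1 in DOPA/HFS. Over the members the log2 fold change had a median of 0.02 for DOPA, 0.12 for HFS and 0.04 for DOPA/HFS, beside medians of -0.01, 0.01 and -0.01 over all genes tested. The HFS median was 0.04 to 0.05 with 75th percentile scaling, with normexp background correction, with the deposited log2 values or with no filter, and that of DOPA/HFS was -0.09 with the deposited log2 values and -0.1 with outlier spots kept. Members above 0 numbered 17 of 27 in DOPA, 20 of 27 in HFS and 18 of 27 in DOPA/HFS, that is 63%, 74.1% and 66.7%, where 47.7%, 51.5% and 47.6% of all genes lay above 0. The 3 comparisons share the 6-OHDA arrays.

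**Figure D1:**
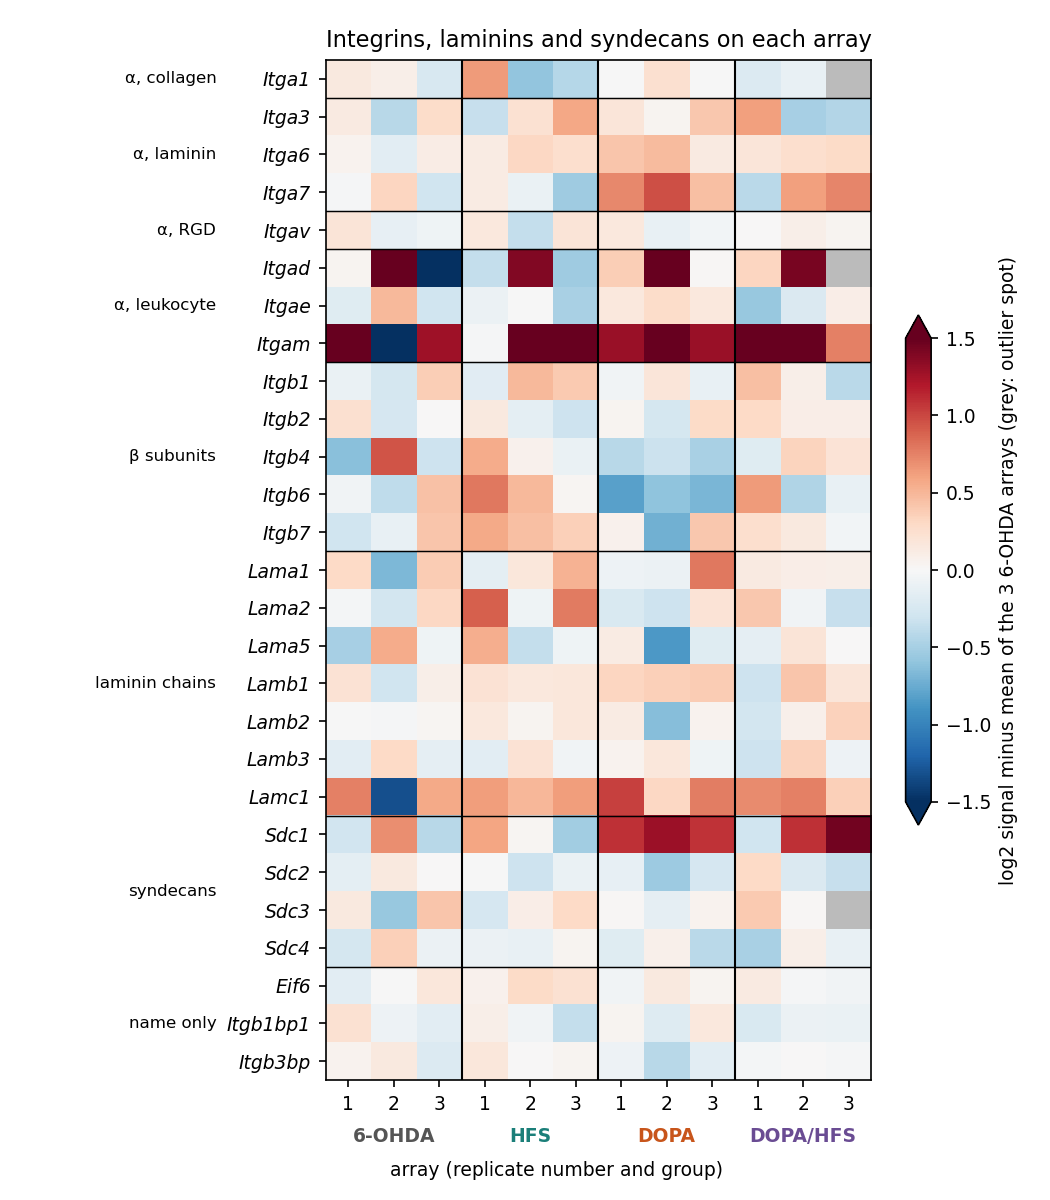
Log2 signal of the 27 tested members on each of the 12 arrays (columns, by group and replicate number), as the difference from the mean of the 3 6-OHDA arrays, with genes (rows) ordered by role and the scale ending at -1.5 and 1.5. Sdc1 and Itga7 are red and Itgb6 is blue on all 3 DOPA arrays, and DOPA/HFS replicate 1 lacks these colours. Itgam and Lamc1 are dark blue on 6-OHDA replicate 2.

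Among the differences of DOPA from 6-OHDA the lowest p was that of Sdc1, the gene of syndecan-1. Its log2 signal was 8.15, 9.13 and 8.02 in 6-OHDA and 9.53, 9.72 and 9.52 in DOPA. All DOPA arrays lay above all 6-OHDA arrays, and they lay close together. The difference was 1.16 ± 0.45 (SE, n = 3), a fold of 2.23, with a 95% confidence interval of 0.17 to 2.14 in the limma fit (unadjusted p = 0.0251, adjusted p = 1). An exact two-sided permutation test gave p = 0.1, and no smaller value can be had from groups of 3. In HFS the log2 signal of Sdc1 was 9.02, 8.46 and 7.91, within the range of 6-OHDA but for its lowest array, and the difference was 0.03 ± 0.45 (SE, n = 3).

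Itga7 encodes the alpha 7 subunit, which pairs with beta 1 to form a laminin receptor. The log2 signal was 12.30, 12.64 and 12.02 in 6-OHDA and 13.04, 13.29 and 12.77 in DOPA, again without overlap. The difference was 0.71 ± 0.31 (SE, n = 3), a fold of 1.64, with an interval of 0.04 to 1.38 (limma, unadjusted p = 0.0399, adjusted p = 1). A second Itga7 probe, well above background on all 12 arrays, gave 0.80. In HFS the log2 signal of Itga7 was 12.44, 12.22 and 11.79 and overlapped with 6-OHDA (-0.17 ± 0.31).

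Itga6, the alpha 6 subunit of other laminin receptors, was higher in DOPA by a smaller step. In 6-OHDA it was at 5.71, 5.5 and 5.77 and 6.08, 6.13 and 5.80 in DOPA, and the highest 6-OHDA array lay just under the lowest DOPA array. The difference was 0.34 ± 0.14 (SE, n = 3), with an interval of 0.03 to 0.64 (limma, unadjusted p = 0.0326, adjusted p = 1), and a second probe gave 0.56. Its signal was well above background on 10 of the 12 arrays, and 1 array of each of these groups was below that limit. HFS (5.78, 5.97 and 5.91) and DOPA/HFS (5.84, 5.91 and 5.95) also lay above all 6-OHDA arrays, by 0.22 and 0.24 on average. The remaining laminin-binding alpha subunit, Itga3, had 5.76, 5.21 and 5.90 in 6-OHDA and 5.81, 5.66 and 6.03 in DOPA, which overlap. All 3 laminin-binding alpha subunits were thus above 0 in DOPA (0.21, 0.34 and 0.71). Without 6-OHDA replicate 2 the Itga3 difference was 0.01. All 3 were above 0 under every alternative scaling and background correction. Of their partner beta subunits, Itgb1, the common beta 1 subunit, differed by 0.01 ± 0.25, and Itgb4, the partner of alpha 6, by -0.41 ± 0.34. The Itgb4 difference rested on 6-OHDA replicate 2: the values were 9.28, 10.85 and 9.60 in 6-OHDA and 9.49, 9.59 and 9.42 in DOPA.

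Itgb6 encodes the beta 6 subunit, which pairs only with alpha V and is known for binding and activating latent TGF-beta. It was lower in DOPA: the log2 signal was 10.46, 10.13 and 10.96 in 6-OHDA and 9.70, 9.91 and 9.83 in DOPA, with no overlap. The difference was -0.71 ± 0.30 (SE, n = 3), a fold of 0.613, with an interval of -1.37 to -0.04 (limma, unadjusted p = 0.0387, adjusted p = 1). Its partner Itgav, the alpha V subunit, was level, with a difference of 0.00 ± 0.17 in DOPA. In HFS the log2 signal of Itgb6 was 11.31, 11.00 and 10.55, which overlapped with 6-OHDA. The difference was 0.43 ± 0.30 (SE, n = 3; unadjusted p = 0.178 in limma).

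Groups without overlap between DOPA and 6-OHDA were found for 5 of the 27 tested members (18.5%), beside 6.27% of all genes. They are Sdc1, Itga7, Itga6, Itgb6 and Lamb1. Lamb1, the beta 1 chain of most laminins of the vessel wall, had 8.92, 8.96 and 8.99 in DOPA against 8.82, 8.30 and 8.69 in 6-OHDA, a difference of 0.36 ± 0.19 (SE, n = 3; unadjusted p = 0.0922 in limma). Sdc1, Itga7 and Itgb6 had been picked from these same arrays by the study. Their values are not independent evidence of their direction, and neither is the share of 18.5%.

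**Figure D2:**
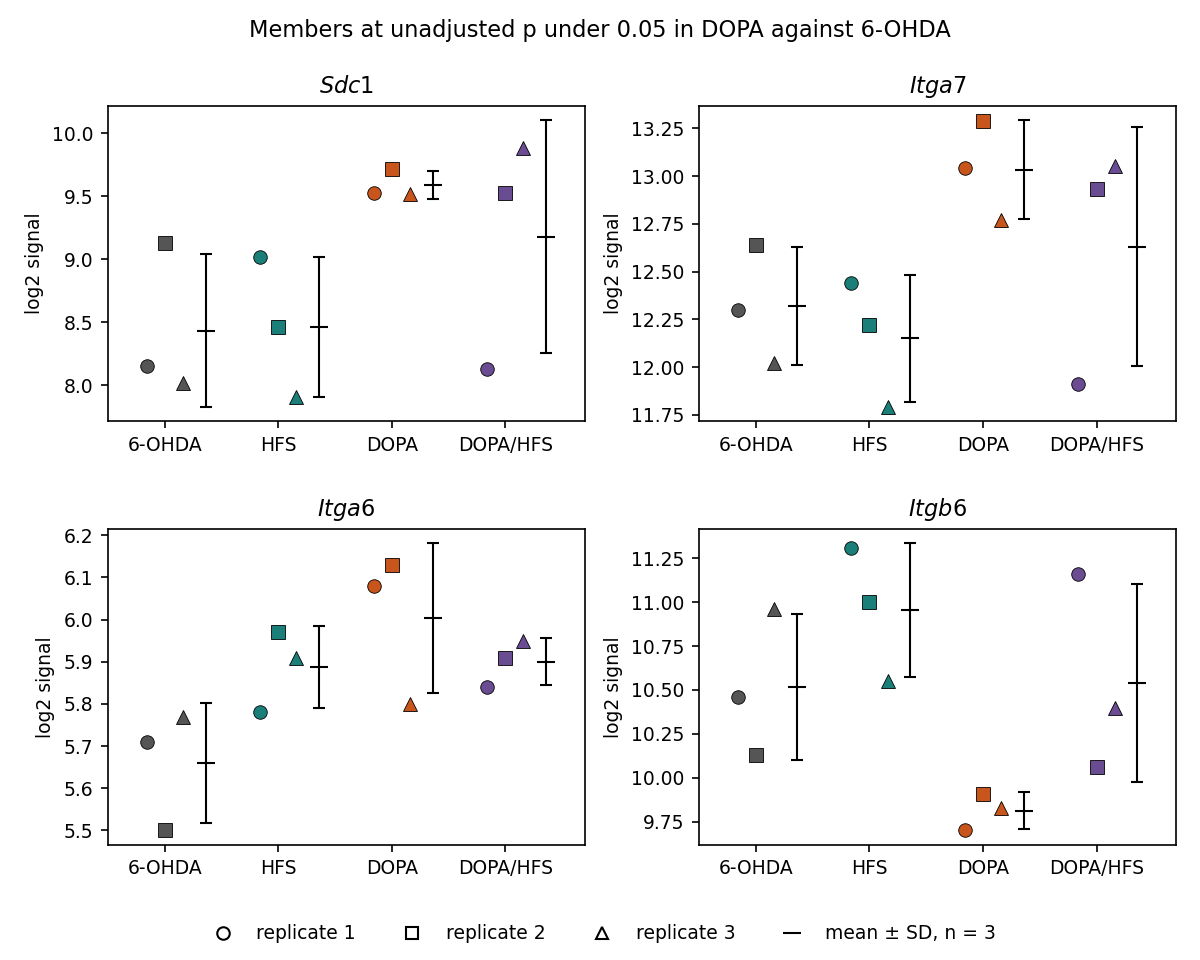
Log2 signal of Sdc1, Itga7, Itga6 and Itgb6 on each array, by group (x axis), with symbols for the replicate number and the mean ± SD of 3 arrays beside the points. The DOPA points lie above those of 6-OHDA for Sdc1, Itga7 and Itga6 and below them for Itgb6, and the DOPA/HFS replicate 1 circle lies among the 6-OHDA values or beyond them on the side away from DOPA for Sdc1, Itga7 and Itgb6.

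The promoters of Sdc1 and Itgb6, the members that were highest and lowest in DOPA among those at an unadjusted p under 0.05, are shown because they differ in base composition and in the motifs they hold. They are the 250 bases before the gene start in the RefSeq promoter table of the rat assembly GRCr8, which holds 29 of the 39 members and has no entry for Itga7 or Itga6. Capitals mark the GC box GGGCGG, read on both strands, or the CArG box, the site of serum response factor. Sdc1 lies at chr6:37281791-37282040 on the plus strand and Itgb6 at chr3:65530334-65530583 on the minus strand.
Sdc1: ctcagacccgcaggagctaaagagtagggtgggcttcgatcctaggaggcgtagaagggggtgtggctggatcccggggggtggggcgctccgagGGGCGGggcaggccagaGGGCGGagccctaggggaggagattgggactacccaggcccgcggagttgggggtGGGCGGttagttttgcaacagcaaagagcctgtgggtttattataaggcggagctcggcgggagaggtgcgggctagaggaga
Itgb6: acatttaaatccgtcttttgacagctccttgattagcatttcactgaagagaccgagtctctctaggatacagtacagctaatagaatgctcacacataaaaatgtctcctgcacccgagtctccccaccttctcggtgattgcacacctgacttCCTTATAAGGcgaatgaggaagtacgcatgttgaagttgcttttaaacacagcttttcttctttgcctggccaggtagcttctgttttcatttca
The Sdc1 stretch has a GC content of 65.2% and holds 3 GC boxes, and the Itgb6 stretch has 43.2% and holds none, against a median of 51.2% over all 33469 promoters. A GC box is present in 30.5% of all promoters and in 17 of the 29 member promoters. A CArG box is present in 1.5% of all promoters, and among the members in Itgb6 and Lama2. The AP-1 site TGANTCA, which 6.34% of all promoters hold, is in no member's stretch. The cAMP response element TGACGTCA is held by 1.59% of promoters and among the members by that of Lamb3. These matches describe letters and show no binding.

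With L-DOPA and stimulation together, the DOPA/HFS arrays divided. The log2 signal of Sdc1 was 8.13, 9.53 and 9.88, that of Itga7 was 11.91, 12.93 and 13.05, and that of Itgb6 was 11.16, 10.06 and 10.40. Replicates 2 and 3 had the high Sdc1 and Itga7 of the DOPA arrays, and replicate 1 was below the 6-OHDA mean for both. Against 6-OHDA the differences were 0.75 ± 0.45 for Sdc1, 0.31 ± 0.31 for Itga7 and 0.02 ± 0.30 for Itgb6 (SE, n = 3). None of the 3 had an unadjusted p under 0.05 in limma. Without DOPA/HFS replicate 1 they were 1.27 for Sdc1, 0.67 for Itga7 and -0.29 for Itgb6, and none was called. Sdc1 (unadjusted p = 0.00626) and Itga7 (unadjusted p = 0.0234) were then the 2 members at an unadjusted p under 0.05 in limma, beside 2.88% of all genes. That array was left out after its values were seen, and both genes were low on it, so these p-values are not independent evidence. The part of the low Pdyn and Trh signal of that array in its Sdc1, Itga7 and Itgb6 values was not tested. Itga6 was the only tested member without overlap between DOPA/HFS and 6-OHDA (3.7%, beside 5.07% of all genes).

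Whether stimulation altered the members in rats given L-DOPA was asked by setting DOPA/HFS against DOPA. Itgb6 was higher by 0.73 ± 0.30 (SE, n = 3), with an interval of 0.07 to 1.39 and no overlap between the groups (limma, unadjusted p = 0.0338, adjusted p = 1). It was the only one of the 27 members at an unadjusted p under 0.05 (3.7%, beside 3.78% of all genes). Without DOPA/HFS replicate 1 its difference was 0.42. Sdc1 (-0.41 ± 0.45) and Itga7 (-0.40 ± 0.31) were lower on average, neither at an unadjusted p under 0.05 in limma. Without DOPA/HFS replicate 1 they stood at 0.12 ± 0.37 and -0.04 ± 0.25. Itga1, Itgae, Itgb3bp, Itgb4 and Itgb6 had no overlap between these groups (Itga1 over 2 DOPA/HFS arrays), 5 of 27 members (18.5%) beside 10.6% of all genes. Against HFS, where the question is what L-DOPA added to stimulation, Sdc1 was higher by 0.72 ± 0.45 and Itga7 by 0.48 ± 0.31, and Itgb6 was lower (-0.41 ± 0.30). No member reached an unadjusted p under 0.05 there, as 2.44% of all genes did. Without DOPA/HFS replicate 1 the differences were 1.24 ± 0.37 for Sdc1, 0.84 ± 0.25 for Itga7 and -0.72 ± 0.27 for Itgb6. Sdc1, Itga7, Itgb6 and Lama2 were then at an unadjusted p under 0.05 in limma (4 of 27, beside 4.64% of all genes). The adjusted p was 0.943 for each of the first 3. That array was left out after its values were seen, so this count is not independent evidence.

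Taking both L-DOPA groups against both groups without it put 6 arrays on each side. Sdc1 was higher by 0.94 ± 0.32 (interval 0.24 to 1.63, unadjusted p = 0.0127). Itga7 was higher by 0.60 ± 0.22 (interval 0.12 to 1.07, unadjusted p = 0.0188). Itgb6 was lower, at -0.56 ± 0.21 (interval -1.03 to -0.09, unadjusted p = 0.0237). In the limma fit the adjusted p of each was 1. The 3 of 27 members (11.1%) compare with 2.74% of all genes at that limit. The study had picked these 3 from these same arrays, so that share is not independent evidence. Without DOPA/HFS replicate 1 the differences were 1.2, 0.78 and -0.71. For the effect of stimulation over both L-DOPA states, Itgb6 alone reached an unadjusted p under 0.05 (1 of 27, 3.7%, beside 4.36% of all genes). It was higher by 0.58 ± 0.21 (unadjusted p = 0.0195, adjusted p = 0.911 in limma), or by 0.43 without DOPA/HFS replicate 1. The test of whether the stimulation effect depended on L-DOPA gave an interaction of 0.30 ± 0.43 for Itgb6, -0.44 ± 0.63 for Sdc1 and -0.23 ± 0.43 for Itga7. Without DOPA/HFS replicate 1 all 3 signs turned, to -0.02 ± 0.37, 0.09 ± 0.50 and 0.13 ± 0.34. No member had an unadjusted p under 0.05 in it, beside 1.98% of all genes.

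Among the laminins, 7 of the 9 chains were tested, and none passed a test. In HFS all 7 were at or above 0, from 0.00 for Lamb3 to 0.58 for Lamc1, with a median of 0.18. As single arrays were dropped the count ran from 5 to 7, with 5 of 7 without 6-OHDA replicate 1 or without 6-OHDA replicate 2. It was 6 of 7 with normexp background correction or with the deposited log2 values, where Lama1 was at -0.05 and -0.06. In DOPA 4 of the 7 were above 0 (median 0.05), and in DOPA/HFS 5 of the 7 (median 0.05). The DOPA/HFS count was 1 of 7 with the deposited log2 values (median -0.09) and 1 of 7 with outlier spots kept (median -0.1).

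Lama2, the alpha 2 chain, known from muscle and from the laminin that astrocytes lay down around vessels, had the lowest p of the members in HFS. On the log2 scale it was at 7.07, 6.83 and 7.41 in 6-OHDA and at 8.00, 7.04 and 7.88 in HFS. Replicates 1 and 3 stood above all other arrays, and replicate 2 lay within the 6-OHDA range. The difference was 0.54 ± 0.29 (SE, n = 3; interval -0.09 to 1.17; unadjusted p = 0.0878 in limma), and leaving out 1 array at a time gave 0.36 to 0.84. The choroid plexus markers were also highest on HFS replicates 1 and 3, as given above, and their part in the Lama2 values was not tested. Lama2 was at 6.87, 6.79 and 7.31 in DOPA and at 7.51, 7.05 and 6.76 in DOPA/HFS, with differences of -0.11 and 0.00 from 6-OHDA. Lamb2, the beta 2 chain, had 9.95, 9.93 and 9.98 in 6-OHDA and 10.11, 9.99 and 10.12 in HFS. These groups did not overlap, and the step was 0.12 ± 0.22. With Itga6 it made 2 of 27 members (7.41%) without overlap between HFS and 6-OHDA, beside 5.14% of all genes.

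Lamc1, the gamma 1 chain common to most laminins, depended on 1 array. The signal was 6.02, 3.95 and 5.83 in 6-OHDA, 5.89, 5.77 and 5.89 in HFS, 6.29, 5.58 and 6.03 in DOPA and 5.98, 6.02 and 5.62 in DOPA/HFS. Only 6-OHDA replicate 2 was low. The differences of 0.58, 0.70 and 0.61 from 6-OHDA became -0.08, 0.04 and -0.05 without that array, and a second Lamc1 probe gave 0.01 in HFS and -0.02 in DOPA. Lamb3, the beta 3 chain of epithelial laminin, has 4 probes. The brightest 3 gave differences of 0.00 to 0.33 in HFS and in DOPA, whereas the dimmest was well above background on all 3 HFS and all 3 DOPA/HFS arrays, on 1 of the 3 in 6-OHDA and on no DOPA array. On that probe the DOPA level was taken as the lowest signal well above background. Against it the mean signal was at least 1.55-fold in HFS and at least 1.56-fold in DOPA/HFS. These bounds leave out the spread between arrays, and stimulated arrays had more spots well above background over the whole array.

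**Figure D3:**
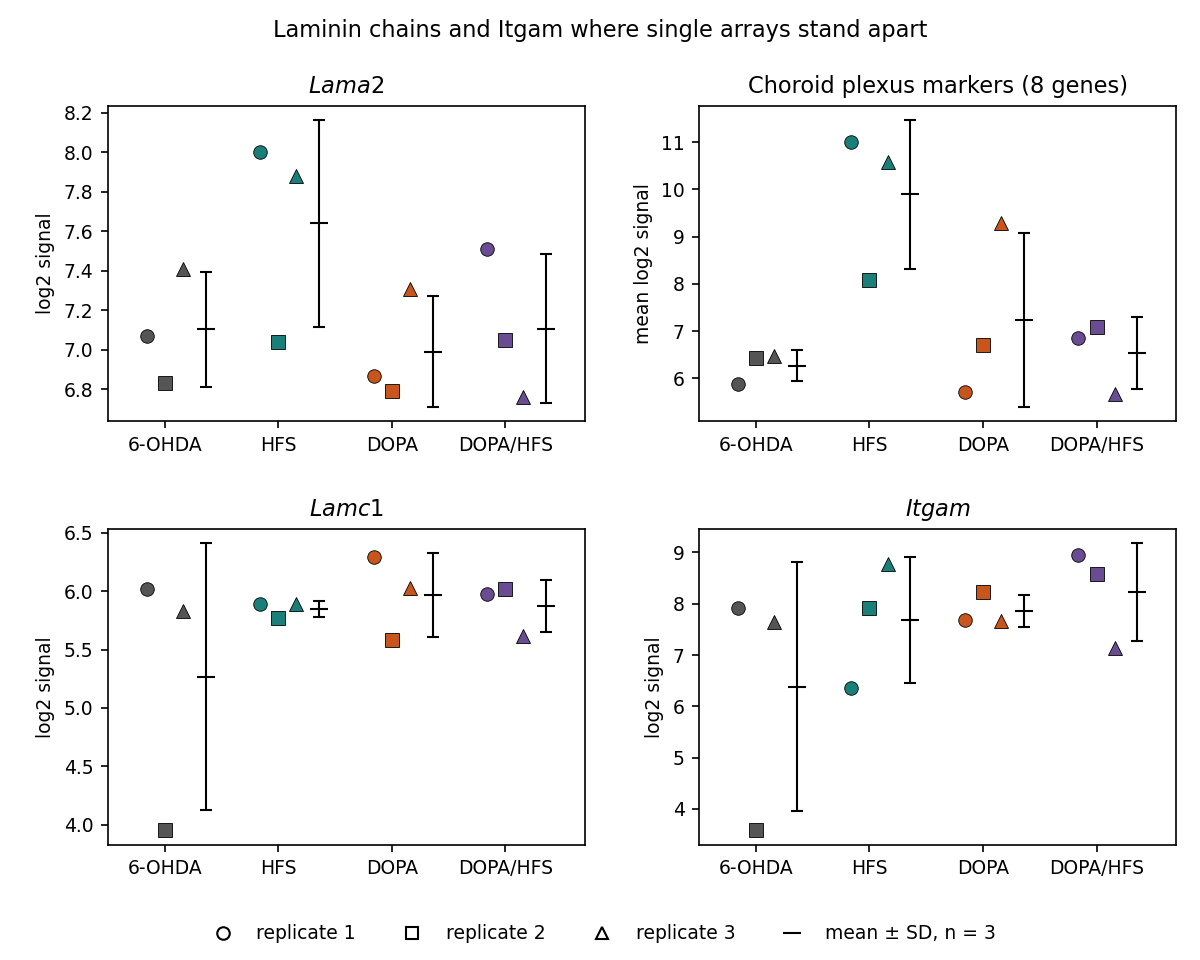
Log2 signal of Lama2, Lamc1 and Itgam, and the mean log2 signal of 8 choroid plexus markers, on each array, by group (x axis), with symbols for the replicate number and the mean ± SD of 3 arrays. Lama2 and the choroid plexus markers are both highest on HFS replicates 1 and 3, and Lamc1 and Itgam are lowest on 6-OHDA replicate 2.

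Itgam and Itgad, leukocyte integrins, had the widest errors of the members. Itgam encodes the alpha M subunit, known as CD11b and carried in the brain by microglia. Its log2 signal was 7.91, 3.58 and 7.65 in 6-OHDA, 6.36, 7.92 and 8.77 in HFS, 7.68, 8.22 and 7.67 in DOPA and 8.95, 8.58 and 7.14 in DOPA/HFS. On 6-OHDA replicate 2 it was not well above background, while the mean of the 9 microglial markers was 11.23 on that array and 11.19 to 11.47 over all arrays. Against 6-OHDA the HFS group differed by 1.30, the DOPA group by 1.47 and the DOPA/HFS group by 1.84 (SE 1.02 each), and these became -0.10, 0.07 and 0.44 without it. Its partner Itgb2, the beta 2 subunit CD18, was steady: 7.82, 7.33 and 7.59 in 6-OHDA, 7.73, 7.43 and 7.27 in HFS, 7.62, 7.32 and 7.87 in DOPA and 7.88, 7.68 and 7.68 in DOPA/HFS. Itgad, another leukocyte alpha subunit, followed the slide. Replicate 2 of each group, all on the same slide, had 6.02, 5.91, 6.06 and 5.95, and the arrays of the other slides had 2.99 to 4.90. Its difference of 0.64 ± 0.77 in DOPA was made of 0.33, 0.04 and 1.55 within the slides. Itgae, which pairs with beta 7 to bind E-cadherin, had 10.66, 10.78 and 10.67 in DOPA and 9.94, 10.29 and 10.61 in DOPA/HFS. These did not overlap, and the difference was -0.43 ± 0.24 (unadjusted p = 0.0978 in limma), or -0.26 ± 0.25 without DOPA/HFS replicate 1.

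The other syndecans did not take the direction of Sdc1 in DOPA. Sdc2, one of the syndecans found at synapses, had 11.89, 12.19 and 12.04 in 6-OHDA and 11.92, 11.49 and 11.79 in DOPA, a difference of -0.31 ± 0.19 that its second probe repeated at -0.32. Sdc3 (-0.02 ± 0.25) and Sdc4 (-0.17 ± 0.21) were within their errors. Of the 5 beta subunits tested, 4 were above 0 in HFS (median 0.23), 2 in DOPA (median -0.08) and 5 in DOPA/HFS (median 0.12). In DOPA/HFS Itgb6 was among them at 0.02 and below 0 with 75th percentile scaling, with normexp, with the deposited log2 values and with outlier spots kept. Itgb7, the partner of alpha 4 and alpha E, had a signal well above background on all 3 HFS arrays (5.25, 5.14 and 5.04), on 2 DOPA/HFS arrays and on none of 6-OHDA (4.38, 4.57 and 5.10) or DOPA (4.75, 3.96 and 5.09). The highest array of each of these groups lay above the lowest HFS array, so the groups overlap. Over the whole array, too, more spots were well above background in the stimulated groups, as given above. With dim arrays set to the lowest signal well above background, the HFS mean was 1.09-fold that of 6-OHDA and 1.06-fold that of DOPA. These bounds concern the means and leave out the spread between arrays. In the limma fit HFS differed from 6-OHDA by 0.46 ± 0.27 (interval -0.14 to 1.06, unadjusted p = 0.117). Itgb7 passed the filter only through the stimulated groups. Without it 3 of 4 beta subunits, and 19 of 26 members, were above 0 in HFS, a count made after its values were seen. It lay at 4.93, 4.83 and 4.64 in DOPA/HFS and was the only member without overlap between DOPA/HFS and HFS (3.7%, beside 7.12% of all genes). Itga1, the alpha subunit of a collagen receptor, ranged from 10.35 to 11.59 in HFS and from 10.71 to 11.09 in 6-OHDA, and Itgav from 7.17 to 7.72 in HFS and from 7.4 to 7.72 in 6-OHDA. The 3 tested genes that carry an integrin only in their name (Eif6, Itgb1bp1 and Itgb3bp) lay between -0.21 and 0.20 in the 3 comparisons with 6-OHDA.

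**Figure D4:**
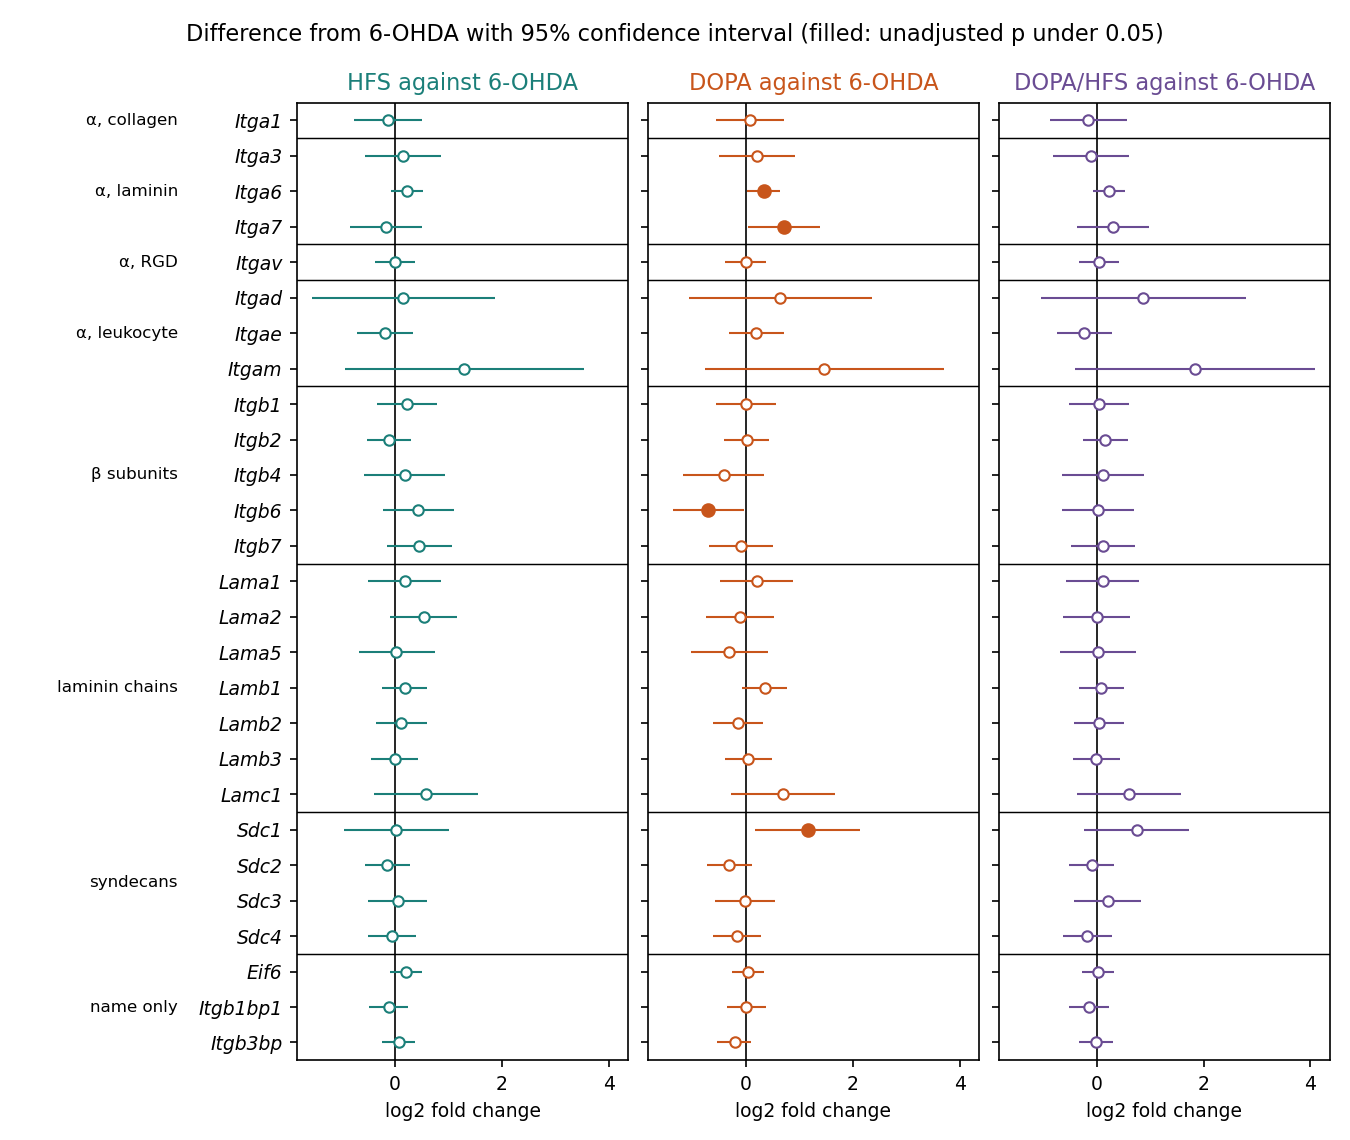
Log2 fold change of the 27 tested members from 6-OHDA in HFS, DOPA and DOPA/HFS (x axis), with 95% confidence intervals of the limma fit as bars and filled points at an unadjusted p under 0.05. The filled points are Sdc1, Itga7, Itga6 and Itgb6 in DOPA, and the widest intervals are those of Itgam and Itgad.

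Of the members left out by the filter, Itga10, Itga4, Itga8, Itgal, Itgb1bp2, Itgb3 and Itgb8 were not well above background on any array. Itga2 was so on 2 arrays, both HFS, and Itga11 on 1 HFS and 2 DOPA arrays. Itga5, the alpha subunit of the fibronectin receptor, reached 2 arrays with its best probe, and Lamc3 reached 1. At these signals the groups were not compared. Of the 6 tested members with several usable probes, 5 had probes of 1 sign in each of the 3 comparisons with 6-OHDA, and the exceptions were Itga7 in HFS, Lamc1 in DOPA and Lamb3 in DOPA/HFS.

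The wider pathway was read from 4 lists. Of the 10 measured matrix ligands (17 listed), none was called. Vtn, the gene of vitronectin, a plasma and matrix protein bound by alpha V integrins, was the only one at an unadjusted p under 0.05. Its log2 signal was 10.57, 10.56 and 10.55 in 6-OHDA, 10.24, 10.08 and 10.12 in HFS, 10.43, 10.22 and 10.29 in DOPA and 10.25, 10.22 and 9.92 in DOPA/HFS. All 9 treated arrays lay below all 6-OHDA arrays, which lay close together. The difference was -0.41 ± 0.13 in HFS (unadjusted p = 0.0102, adjusted p = 0.998) and -0.43 ± 0.13 in DOPA/HFS (unadjusted p = 0.00781, adjusted p = 1, limma). Of the 5 measured basement membrane partners of laminin, 0 were called and 0 had an unadjusted p under 0.05 in any comparison with 6-OHDA. The same held for the 14 measured genes of the integrin adhesion machinery (a talin, a kindlin, focal adhesion kinase and others). Among the 10 measured syndecan partners and glypicans, 0 were called. One was at an unadjusted p under 0.05 above 6-OHDA in DOPA, namely Sdcbp, the syndecan-binding protein syntenin, with 15.35, 15.67 and 15.35 against 15.16, 15.16 and 15.05 (0.33 ± 0.15, unadjusted p = 0.0436, adjusted p = 1 in limma). One was below it in HFS, Gpc3, the glypican-3 gene, at -0.56 ± 0.20 (unadjusted p = 0.016, adjusted p = 0.998 in limma). The study had listed Vtn and Gpc3 as lowered in HFS from these same arrays, so their values are not independent evidence.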

How the data were processed

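The authors deposited 1 scanner file per array, and its spot intensity values, on a linear scale with background subtracted by Agilent Feature Extraction (9.1 in the submitters' processing notes), were the starting point. The deposited log2 table had been quantile normalized by the authors and served as an alternative. Control and outlier spots were left out. The log2 of the other spots was quantile normalized across the 12 arrays, and spots of a probe were averaged. Kept were probes with a signal well above background on at least a share of 0.4 of all arrays, and each gene was read from its brightest probe. Of 41012 probes, 10735 were named through the RefSeq gene table of GRCr8. All 12 arrays were fitted with limma 3.58.1 in R 4.3.3, in place of the permutation test (SAM) that the study used. The fit was tested on simulated data. Confidence intervals are 95% intervals of that fit. The number of arrays, 3 per group, limits the precision.

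All groups had 1 array on each of the 3 slides, so that replicates with the same number share a slide. The groups kept their place on every slide, and place and group cannot be told apart. Each array was from a separate rat. Of the members that did not pass the filter, 1 is not reported here. Members, gene lists and tests were chosen with earlier results of these data known. Full values are given for members at an unadjusted p under 0.05 against 6-OHDA, for Itga7, Itgb6 and Sdc1, and for members measured in some groups only. Other members were described to complete their family, and genes outside the members were given in full at an unadjusted p under 0.01 in the pathway lists. Sdcbp, Gpc3, Pdyn and Trh were named after their values were seen. Marker lists covered choroid plexus, leptomeninges, endothelium, mural cells, microglia, other leukocytes, astrocytes, oligodendrocytes, ependyma, striatal projection neurons and cortical neurons. The alternatives were 75th percentile scaling, normexp with an offset of 50, the deposited log2 values, other filters, the mean of all probes, the slide as a block, outlier spots kept, a fit of the compared arrays alone, a stricter adjusted p of 0.05, a call without the fold limit, and leaving out each array.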

Additional observations from a re-analysis of the deposited data

How the results depend on the processing

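Under each of 22 to 24 alternatives per comparison the number of members called stayed at 0, and the lowest adjusted p of any member under any of them was 0.248, that of Sdc1 for L-DOPA over both stimulation states without DOPA/HFS replicate 1. Fits of only the arrays compared were not made for the interaction and the 2 main effects, which use all arrays. The replicate numbers were not taken as a pairing: the correlation of same-numbered arrays' deviations ran from -0.287 to 0.476 over 18 pairs, with 10 over 0.1 and a median of 0.112 against -0.0692 for other pairs, and 5 of 12 arrays correlated best with their own number. With the replicate number as a block, the number of members called was again 0 in all 8 comparisons and the medians were 0.12, 0.02 and 0.04.

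The median of the members in HFS, 0.12, was 0.05 with 75th percentile scaling, 0.04 with normexp, 0.05 with the deposited log2 values, 0.05 with no filter, 0.10 with the filter on all 3 arrays of a group and 0.15 with the mean of all probes, and it was 0.10 with Itgb7 left out, an alternative chosen after seeing the data. In DOPA/HFS the median of 0.04 became -0.09 with the deposited log2 values and -0.10 with outlier spots kept. Leaving out single arrays gave 0.02 to 0.12 in HFS, 0.01 to 0.10 in DOPA and -0.01 to 0.11 in DOPA/HFS. The cause of these shifts was not tested.

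Some single values near 0 changed sign. Itgb6 in DOPA/HFS against 6-OHDA was -0.0022 with 75th percentile scaling, -0.02 with normexp, -0.16 with the deposited log2 values and -0.12 with outlier spots kept, and lay between -0.29 and 0.27 with 1 array dropped at a time. Leaving out single arrays gave -0.25 to 0.38 for Sdc1, -0.32 to 0.01 for Itga7, -0.10 to 2.07 for Itgam and -0.08 to 0.96 for Lamc1 in HFS, and -0.05 to 0.98 for Lamc1 in DOPA/HFS. In DOPA against 6-OHDA the differences of Sdc1 (0.94 to 1.51), Itga7 (0.56 to 0.87), Itga6 (0.16 to 0.45) and Itgb6 (-0.90 to -0.48) kept their sign under every alternative run. DOPA and 6-OHDA did not overlap for these genes, so leaving out 1 array could not have turned a sign.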

Other observations

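Marker lists not described above gave these mean log2 signals. Leptomeningeal markers (10 measured) ran from 7.86 to 8.5 in 6-OHDA, 8.39 to 8.69 in HFS, 8.07 to 8.60 in DOPA and 7.76 to 9.15 in DOPA/HFS. Mural cell markers (7 measured) ran from 9.31 to 9.68 in 6-OHDA, 9.30 to 9.47 in HFS, 9.45 to 9.68 in DOPA and 9.22 to 9.55 in DOPA/HFS. Astrocyte markers (7 measured) ran from 11.53 to 11.81 over all arrays and oligodendrocyte markers (8 measured) from 13.99 to 14.63. Ependymal markers (3 measured) ran from 8.28 to 9.33 in 6-OHDA and 9.1 to 9.65 in HFS, cortical neuron markers (2 measured) from 8.07 to 10.11 over all arrays, and markers of other leukocytes (2 measured of 11 listed) from 6.47 to 7.72. None of the genes in these lists was called in any comparison with 6-OHDA.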
